A study of Ovis aries with 36 samples.

Results

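The loci described here lie at the positions of genes for myosin light chains and for a kinase of the regulatory light chain. They are 6 of the 31136 loci counted in the series and were taken by their Ensembl identifiers. No measured value entered this rule, but the genes had been chosen with results of these samples known. They comprise the locus of MYL3 (ENSOARG00000006996), 2 loci at the position of MYL2 (ENSOARG00000017646 and ENSOARG00000017779), 2 loci at the position of MYL6 (ENSOARG00000009931 and ENSOARG00000010069) and the locus at the position of MYLK3 (ENSOARG00000015706). In the order just given, the paired loci are called MYL2-A and MYL2-B, and MYL6-A and MYL6-B, letters that serve only to tell them apart. All 6 passed the filter on low counts, which kept 12461 loci.

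The 36 samples were RNA libraries of 9 muscles taken from each of 4 unrelated Poll Dorset cross-bred lambs. From the shoulder came Supraspinatus (SS), from the loin Psoas major (PM) and Longissimus lumborum (LL), and from the hindquarter Gluteus medius (GM), Gluteobiceps (GB), Adductor (AD), Rectus femoris (RF), Semitendinosus (ST) and Semimembranosus (SM). The lambs were 14 months old, had been fed soy crop with a sorghum supplement after weaning, and were sampled at slaughter in the superficial mid belly of each muscle. No muscle served as an untreated control, and each animal contributed to every muscle, so muscles were compared within animals.

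Myosin, the motor of the muscle fibre, consists of heavy chains that each carry an essential and a regulatory light chain on the lever arm. MYL3 is the essential and MYL2 the regulatory light chain of slow skeletal fibres and of the heart ventricle, whereas MYL6 is the essential light chain of non-muscle and smooth muscle myosin and is present in most cells. MYLK3 is a light chain kinase best known from the heart, where it phosphorylates the regulatory light chain.

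The loci occupy 4 positions of the sheep assembly Oar_v3.1. MYL3 lies on chromosome 19 from 52560400 to 52569198, and no other locus shares its coordinates. Both MYL2 loci are listed on chromosome 17 from 54257918 to 54303146, and in the study's tables this stretch holds both MYL2 and CCDC63, the coding gene next to MYL2 in RefSeq. Both MYL6 loci are listed on chromosome 3 from 163076924 to 163101778, where RefSeq places MYL6 between SMARCC2 and MYL6B. Coordinates alone do not tell which locus of a pair is MYL2 or MYL6, and values are reported for each. A locus of a pair may therefore be another gene, such as CCDC63 at the position of MYL2 or MYL6B at that of MYL6. MYLK3 is listed on chromosome 14 from 14547940 to 14606419 together with 5 loci that have no Ensembl gene. These coordinates cover the end but not the start that the study gave for MYLK3. The files give neither strand nor exons, so reads of loci that overlap may have been split between them, and the spans include introns.

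The primers with which the study measured MYL3, MYL2 and MYL6 by qRT-PCR are shown because they are the designed sequences tied to these gene names. They are printed from 5′ to 3′ in lower case throughout, with no base marked. Which of the paired loci they would amplify was not tested, and the qRT-PCR values were not used here.
MYL3 forward: tctccaagaacaaggacaccg
MYL3 reverse: atcttctgtcagcctctcacc
MYL2 forward: ctttggaaaacctctccgcc
MYL2 reverse: agaccattctcaacgcattca
MYL6 forward: gccaaaacagactccacctc
MYL6 reverse: caaagtcatgggagctgagc
The primers are 20 to 21 bases long, and the reverse MYL2 primer has 9 G or C bases whereas each of the others has 11.

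The samples held between 3699148 and 6427422 counts, and the 4 most counted loci took 65.7 to 78.3% of them. Expression is given as CPM, counts scaled to the size of their library after TMM normalisation, and muscles are summarised by the mean ± SD of their samples (n = 4 animals). At this depth 3 counts, taken as the smallest number that can be told from 0, equal 0.365 to 1.02 CPM, a floor that covers counting error only. The 6 loci together had 226 to 3085 counts per sample. Among the tested loci their total counts ranged from the percentile 85.2 for MYL6-B to the percentile 98.0 for MYL2-A. Levels are compared between muscles for the same locus and not between loci, since the length of each transcript was not available here. The general markers of skeletal muscle fibres could not be paired with a locus, so the tissue label was not checked with them. For 7 genes typical of slow muscle fibres, mean levels lay between 1.51 CPM (CASQ2 in ST) and 421 CPM (ATP2A2 in PM).

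The 6 loci differed in where they were high. MYL3 was highest in PM, both MYL2 loci were highest in SS and PM, MYLK3 was highest in PM and GB, and all 4 of these loci were lowest in ST. MYL6-B was highest in SS, by 4.05 on the log2 scale over PM, whereas MYL6-A was measured at a similar level in all muscles. In the joint test of the 9 muscles, 5 of the 6 loci differed (quasi-likelihood F test of edgeR, p-values adjusted by Benjamini-Hochberg over all tested loci and called edgeR FDR from here on, at most 0.01), beside 9.73% of all tested loci. The study named these genes from its own comparisons of the same samples, so this share is not independent evidence. In whole tissue, fewer fibres of a type and less RNA per fibre cannot be told apart.

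**Figure D1:**
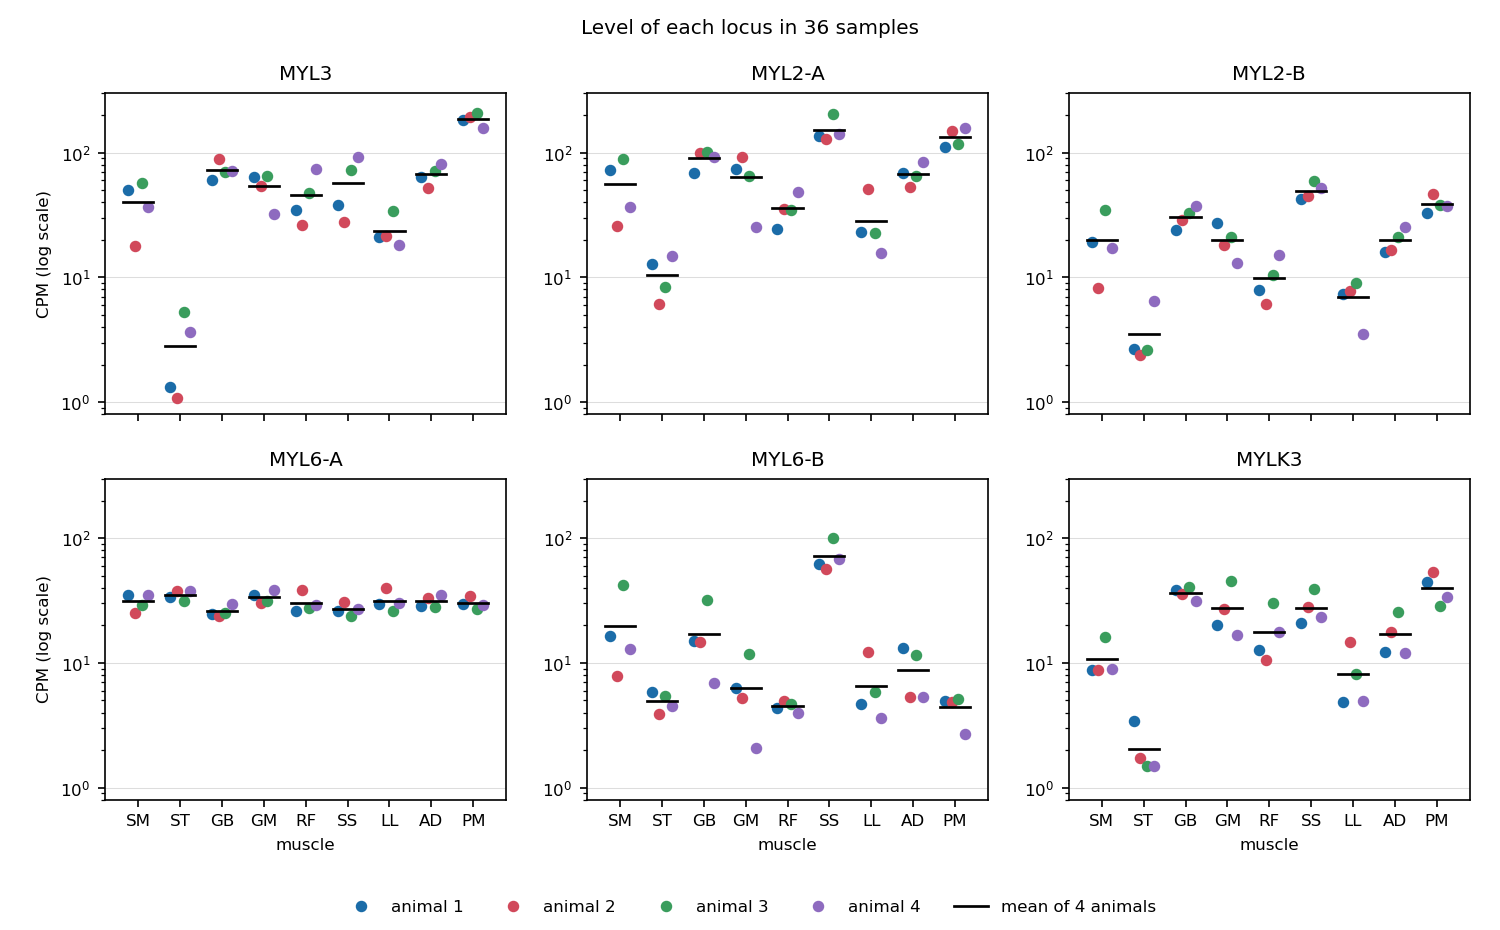
Level of each of the 6 loci in CPM on a log axis, by muscle. Points are the 4 animals and black lines their means, and the ST points of MYL3, MYL2-A and MYLK3 lie below all 32 other samples while the SS points of MYL6-B lie above them.

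MYL3, the essential light chain of slow fibres, had the widest range of the 6 loci. It stood at 182, 192, 206 and 158 CPM in PM of animals 1 to 4, and at 1.33, 1.09, 5.28 and 3.65 CPM in ST. The 4 PM samples lay above and the 4 ST samples below the samples of every other muscle. The counts behind the ST values were 5, 5, 32 and 17. Between these extremes MYL3 was at 72.7 ± 12.1 CPM in GB, 67.1 ± 11.8 in AD, 53.7 ± 15.3 in GM, 57.3 ± 29.7 in SS, 45.8 ± 20.9 in RF, 40.3 ± 17.0 in SM and 23.7 ± 7.03 in LL. In the order of the mean log2 level, from PM down to ST, the pairs of neighbours from PM to LL did not pass the test, and only the last step from LL to ST did, with a log2FC of 3.08 (edgeR FDR 2.92e-05). The mean CPM of PM (185 ± 19.9) was 65.1 times that of ST (2.84 ± 2.00).

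MYL3 differed between muscles in 12 of 36 pairs, where the share of all locus and pair combinations past an FDR of 0.01 and an absolute log2FC above 1 was 0.739%. Of these pairs, 8 were those in which ST was lower, thus every comparison with ST, and 5 were those in which PM was higher, the pair of ST and PM counting in both. Over the 8 pairs with ST, 0.866% of all tests were calls with ST lower, and over the 8 pairs with PM, 0.293% were calls with PM higher. The call between RF and PM was lost without animal 1, 2 or 3 and without animal in the model (FDR 0.0107), and that between ST and GM in the fit to its 8 samples. The largest difference of any of the 6 loci was that of MYL3 between ST and PM, with a log2FC of -6.08 and within-animal differences of -6.77, -7.06, -5.19 and -5.31 (SE 0.484). Its edgeR FDR was 1.62e-09, beside 0.875% of all loci called higher in PM than in ST.

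Each of the 7 slow fibre genes had its highest mean in SS or PM, and MYL3 was the light chain that differed between these muscles with the higher level in PM. In SS it stood at 38.0, 27.6, 72.3 and 91.3 CPM, and all 4 samples were below the lowest PM sample. The log2FC of SS minus PM was -1.79 (SE 0.435, lower in SS in 4 of 4 animals, edgeR FDR 0.00378). This call was lost without animal 1, 2 or 3 and without animal in the model (FDR 0.0237), over an FDR range of 1.51e-06 to 0.0616 among all alternatives.

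The 2 loci at the position of MYL2, the regulatory light chain, moved together from muscle to muscle. MYL2-A stood at 134, 129, 205 and 140 CPM in SS of animals 1 to 4, at 111, 148, 117 and 158 CPM in PM and at 12.7, 6.10, 8.41 and 14.8 CPM in ST. The SS and PM samples overlapped, and the 4 ST samples lay below the other 32. The second locus, MYL2-B, stood at 42.1, 44.5, 59.3 and 51.8 CPM in SS, at 32.6, 46.6, 38.0 and 37.3 CPM in PM and at 2.66, 2.40, 2.64 and 6.44 CPM in ST. Its ST samples overlapped with those of LL, where animal 4 was at 3.49 CPM, and of RF, where animal 2 was at 6.11 CPM, and lay below the samples of the 6 remaining muscles.

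The remaining muscles kept one order in both MYL2 loci on the log2 scale, from GB through AD, GM, SM and RF to LL. MYL2-A was at 90.4 ± 15.4 CPM in GB, 67.6 ± 12.7 in AD, 64.1 ± 28.4 in GM, 56.2 ± 30.0 in SM, 35.7 ± 9.67 in RF and 28.2 ± 15.8 in LL. MYL2-B was at 30.6 ± 5.56 CPM in GB, 19.8 ± 4.45 in AD, 19.9 ± 5.93 in GM, 19.8 ± 11.0 in SM, 9.88 ± 3.89 in RF and 6.93 ± 2.40 in LL. No step between neighbours in this order passed the test for either locus, the largest being the step from LL to ST in MYL2-A (log2FC 1.40, edgeR FDR 0.0551). Each of these orders is therefore a sequence of means in which no single step passed the test. Missing this threshold does not show that neighbours overlap. In MYL2-A all PM samples lay above those of GB, and all LL samples above those of ST. The other neighbours of MYL2-A, and all neighbours of MYL2-B, overlapped.

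MYL2-A was called in 8 pairs of muscles and MYL2-B in 12, beside 0.739% of all locus and pair combinations. Over the 8 pairs with ST, 0.866% of all tests were calls with ST lower. Both were lower in ST than in SM, GB, GM, SS, AD and PM, and both were lower in LL than in SS and PM. For MYL2-A, the calls of ST against GB, SS and PM were made under all alternatives, and the other 5 were lost without animal 1 and without animal 3, and their FDR reached at most 0.129 over all alternatives. For MYL2-B, the call between SM and ST was lost without animal 1 or 3 (FDR of at most 0.0322 over all alternatives). The fit to the 8 samples of a pair lost the calls of ST against SM and GM in both loci. The pairs called in MYL2-B alone were SM and RF against SS, GB against LL, and RF against PM. All 4 were lost without animal 1 and without animal 3, and that of SM against SS also without animal in the model (FDR 0.0132). In MYL2-A these 4 pairs had the same direction without a call, for instance -2.08 between RF and SS (edgeR FDR 0.0111). That call was made under 7 of the 13 alternatives, including the one without animal (FDR 0.00460, range 2.48e-06 to 0.233). Between ST and SS the log2FC was -3.84 (SE 0.337, edgeR FDR 2.57e-06) for MYL2-A and -3.81 (SE 0.297, FDR 1.52e-07) for MYL2-B.

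The ratio of the 2 MYL2 loci in the same sample did not vary detectably among the muscles. Its log2 mean ranged from 1.49 in SM to 1.90 in LL, a spread of 0.41, whereas the mean SD among animals within a muscle was 0.35. A permutation test of muscle labels within animals gave p = 0.685 (100000 resamples, adjusted p = 0.685 over 5 ratios). Over the 9 muscle means of log2 CPM the correlation of the 2 loci was 0.992, and it was 0.940 or more within each animal. These points come from the same 4 animals and libraries, and the loci share their coordinates.

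MYLK3, the kinase, was low in ST and high in PM and GB. It stood at 44.8, 53.2, 28.5 and 33.8 CPM in PM of animals 1 to 4, at 38.4, 35.8, 40.8 and 31.5 CPM in GB and at 3.45, 1.74, 1.48 and 1.50 CPM in ST. PM and GB overlapped, and the ST samples, with 7 to 13 counts each, lay below the other 32 samples. It was at 27.7 ± 8.15 CPM in SS, 27.4 ± 12.9 in GM, 17.7 ± 8.72 in RF, 16.9 ± 6.42 in AD, 10.7 ± 3.56 in SM and 8.14 ± 4.59 in LL. The only neighbours in this order that passed the test were LL and ST, with a log2FC of 1.98 (edgeR FDR 0.00146). That call was lost without animal 2 or 4 and in the fit to the 8 samples of the pair.

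MYLK3 was called in 14 of 36 pairs, the most of the 6 loci, beside 0.739% of all locus and pair combinations. ST was lower in 8 of these pairs, and LL and SM were each lower in 3. Over the 8 pairs with ST, 0.866% of all tests were calls with ST lower. Without animal in the model, SM was no longer called lower than GB (FDR 0.0769) or SS (FDR 0.0226). Without animal 4, 6 of the 14 calls were made, all with ST lower, and those of ST against SM and LL were among the calls lost. Between ST and PM the log2FC was -4.35 (SE 0.231, lower in 4 of 4 animals, edgeR FDR 1.01e-08). The 5 loci without an Ensembl gene at the same coordinates had 1370 counts in all, of which 15 were in ST, 277 in SS and 247 in PM. Of the 4 among them that were tested, 3 were called lower in ST than in SS, with log2FC between -4.65 and -2.55 over the 4, beside 1.56% of all loci. Whether these are further parts of the same transcript was not tested.

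**Figure D2:**
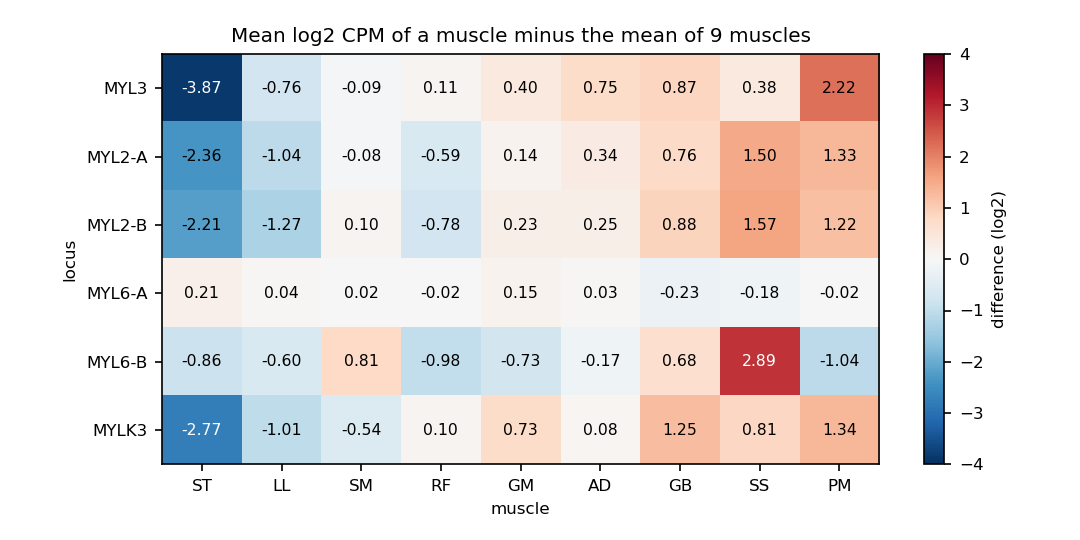
Mean log2 CPM of each muscle minus the mean over the 9 muscles, for each of the 6 loci, with muscles placed from ST to PM. ST is the lowest muscle for MYL3 (-3.87), MYL2-A (-2.36), MYL2-B (-2.21) and MYLK3 (-2.77), MYL6-B stands out in SS (2.89), and MYL6-A stays between -0.23 and 0.21.

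The 2 loci listed at MYL6 behaved differently from each other. MYL6-B stood at 62.0, 57.0, 100 and 68.4 CPM in SS of animals 1 to 4, and no sample of another muscle was above 41.9 CPM. It was at 19.7 ± 15.2 CPM in SM, 17.1 ± 10.5 in GB, 8.82 ± 4.07 in AD, 6.55 ± 3.81 in LL, 6.33 ± 4.04 in GM, 4.93 ± 0.874 in ST, 4.48 ± 0.412 in RF and 4.40 ± 1.13 in PM. SS was thus separate from all 8 muscles in every sample, and the other muscles overlapped one another in most pairs. In SM and GB the values were spread widely, with animal 3 at 41.9 and 31.8 CPM and the other animals between 6.89 and 16.3 CPM.

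MYL6-B was higher in SS than in each of the 8 other muscles, where 0.791% of all tests over these 8 pairs were calls with SS higher. The log2FC ranged from 2.02 against SM (SE 0.335, edgeR FDR 0.000778) to 4.05 against PM (SE 0.245, FDR 1.28e-06). The calls against SM and GB were lost without animal 1 or 4 and without animal in the model (FDR 0.0188 and 0.0423), and the call against GM was lost in the fit to its 8 samples. The calls against ST, RF, LL, AD and PM were made under all 13 alternatives. The 3 remaining calls of the locus were those in which SM was higher than ST, RF and PM. Each of these 3 was lost without animal 1, 3 or 4 and without animal in the model (FDR 0.0263 against RF and 0.0196 against PM). For SM against ST the log2FC was 1.85 (edgeR FDR 0.00882, range of the alternatives 4.63e-05 to 0.103, no animal in the model 0.0509).

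MYL6-A had 0 calls in the 36 pairs by edgeR's quasi-likelihood test, and 0 by DESeq2, and 5 of the 36 had an unadjusted p under 0.05. It stood at 34.0, 37.7, 31.2 and 37.8 CPM in ST of animals 1 to 4 and at 26.1, 30.6, 23.6 and 27.0 CPM in SS. Here the groups did not overlap, with ST higher in 4 of 4 animals by a log2FC of 0.39 (SE 0.038, edgeR FDR 0.0647). It was at 33.8 ± 3.66 CPM in GM, 31.5 ± 6.04 in LL, 31.1 ± 3.27 in AD, 31.0 ± 4.69 in SM, 30.0 ± 3.17 in PM, 30.1 ± 5.49 in RF and 25.8 ± 2.72 in GB. The largest difference between any 2 muscles was 0.44 on the log2 scale, between ST and GB, and the joint test over the 9 muscles gave an edgeR FDR of 0.155. The locus had 102 to 317 counts per sample, and its CV among animals within a muscle had a median of 10.8%, against 46.2% for MYL6-B.

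The log2 ratio of MYL6-B to MYL6-A was 1.24, 0.89, 2.07 and 1.33 in SS of animals 1 to 4 and between -3.26 and -2.31 in PM. It ranged over 4.14 among the muscle means, against a mean SD within a muscle of 0.65. The permutation test of muscle labels within animals gave an adjusted p = 2.5e-05 over 5 ratios, from the smallest p that 100000 resamples can give. RefSeq places MYL6B, another essential light chain, next to MYL6. Neither MYL6B nor smooth muscle or other non-muscle genes could be paired with a locus here, so no level is given under their names. Whether 1 of the 2 loci at MYL6 is MYL6B was not tested.

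**Figure D3:**
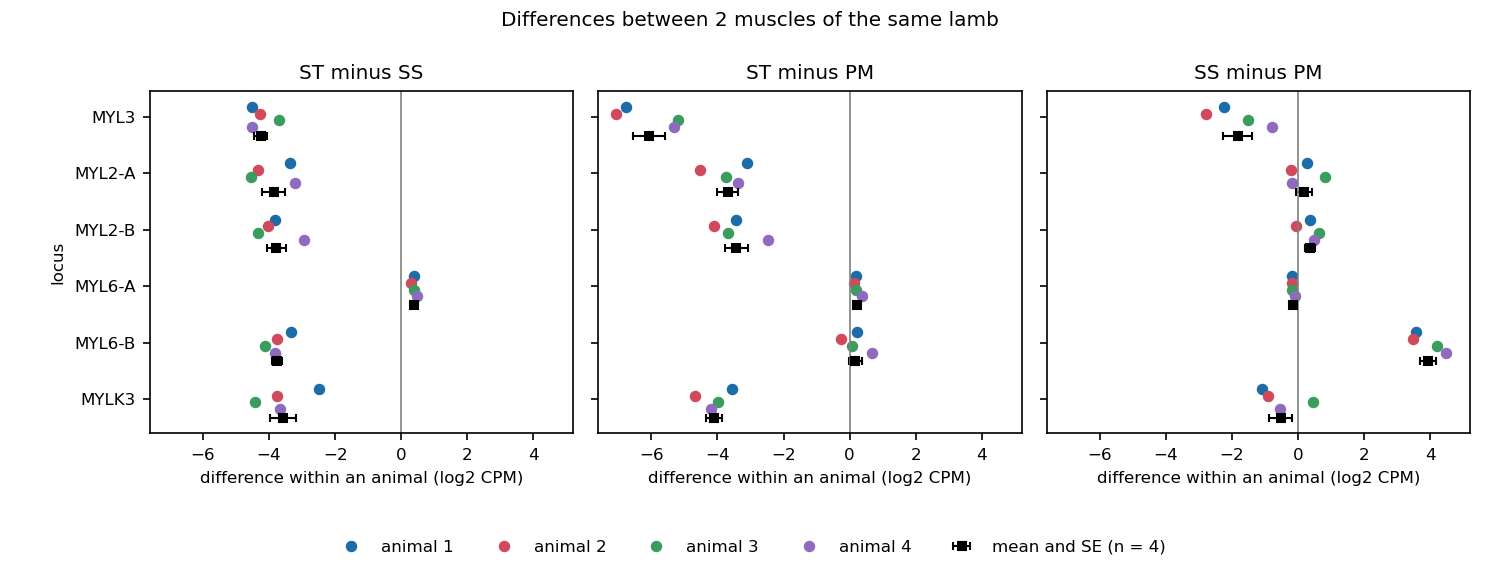
Difference in log2 CPM between 2 muscles of the same lamb for each of the 6 loci, with 4 animals as points and the mean and SE as a black square. In ST minus SS 5 loci lie between -4.55 and -2.48 in every animal, whereas in SS minus PM MYL3 and MYL6-B differ in opposite directions.

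The 3 muscles ST, SS and PM summarise how the loci differ. Between ST and SS, 5 of the 6 loci were called lower in ST, beside 1.56% of all tested loci, with log2FC of -4.29 for MYL3, -3.87 for MYL6-B, -3.84 and -3.81 for the MYL2 loci and -3.75 for MYLK3. All 5 calls were made under every alternative that gave a value. Between ST and PM, 4 loci were called lower in ST, beside 0.875% of all loci. MYL6-B stood at 4.93 ± 0.874 CPM in ST against 4.40 ± 1.13 in PM (log2FC 0.18, edgeR FDR 0.885). Between SS and PM, 2 loci were called, beside 0.835% of all loci, with MYL3 higher in PM and MYL6-B higher in SS, where 0.473 and 0.361% of all loci were called in these directions. MYL2-A (log2FC 0.17), MYL2-B (0.33) and MYLK3 (-0.60) overlapped between SS and PM and passed no test. These comparisons share samples and are not independent of each other.

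The median log2FC of the 6 loci was -3.83 between ST and SS, -3.57 between ST and PM and 0.00 between SS and PM. The median over all tested loci was -0.01, 0.00 and 0.02 in the same comparisons. Together the 6 loci accounted for 57 calls of 216 possible (26.4%), beside 0.739% over all tested loci and pairs.

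**Figure D4:**
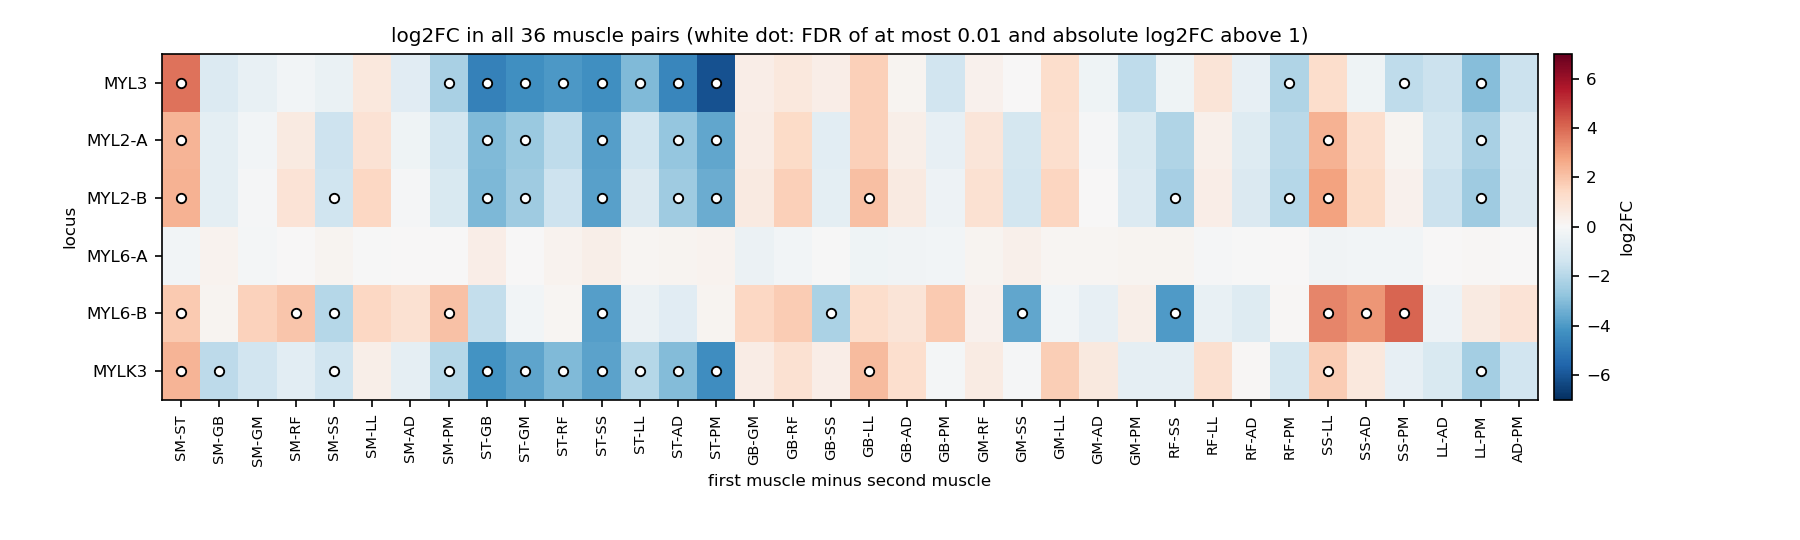
log2FC of each of the 6 loci in all 36 pairs of muscles, first muscle minus second, as colour, with a white dot where the difference passed an FDR of 0.01 and an absolute log2FC above 1. The dots of MYL3, the MYL2 loci and MYLK3 gather in pairs with ST, those of MYL6-B in pairs with SS, and MYL6-A has none.

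MYL3 did not keep one proportion to either MYL2 locus across muscles. The log2 ratio of MYL3 to MYL2-A was 0.71, 0.37, 0.81 and 0.01 in PM of animals 1 to 4, -1.82, -2.21, -1.50 and -0.62 in SS and -2.96, -2.16, -0.64 and -1.92 in ST. Both SS and ST lay below PM without overlap, and every other muscle had a mean between -0.43 in SM and 0.29 in RF. Only differences in this ratio between muscles are of use, since the transcripts differ in length. The permutation test gave adjusted p = 3.33e-05 for this ratio and 2.5e-05 for the ratio of MYL3 to MYL2-B (muscle labels permuted within animals, 5 ratios). In the ratio to MYL2-B the means ranged from -0.41 in ST and 0.07 in SS to 2.25 in PM.

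The ratio of the kinase MYLK3 to MYL2-A varied less. Its log2 mean was highest in RF (-1.07 ± 0.65) and lowest in SS (-2.46 ± 0.21), and the samples of RF, GB, GM and LL all lay above those of SS. The permutation test gave an adjusted p = 0.00895, which was no longer past 0.05 without animal 3 (0.154) or animal 4 (0.0554). The ratio of MYL3 to MYL6-B was added after the values had been seen and was not tested. Its log2 mean was 5.31 ± 0.26 in PM, -0.45 ± 0.62 in SS and -0.94 ± 0.92 in ST, while the remaining 6 muscles lay between 1.17 and 3.19.

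**Figure D5:**
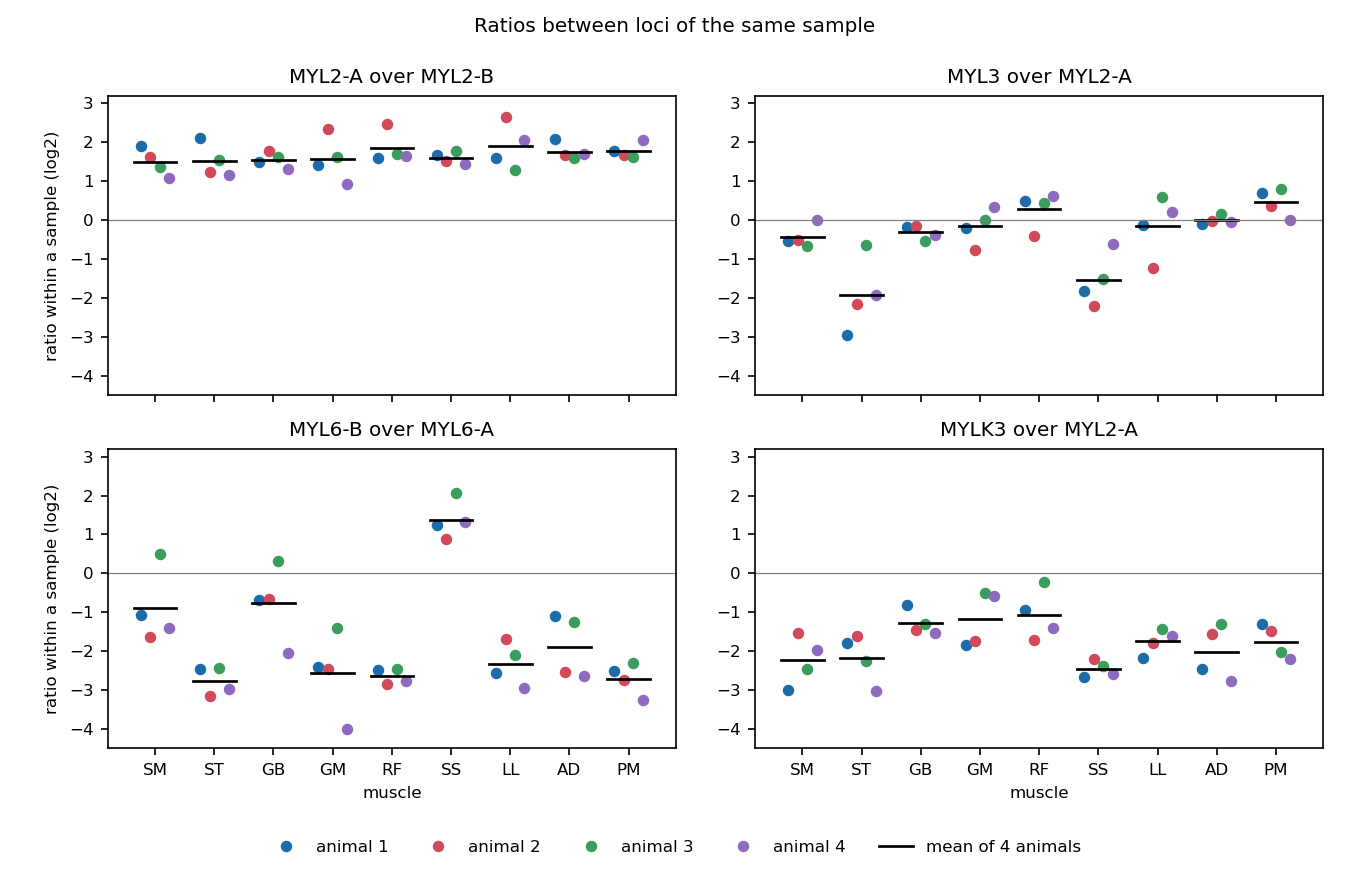
Log2 ratio between 2 loci in the same sample, by muscle, with the 4 animals as points and their mean as a black line. The ratio of the MYL2 loci stays between 1.49 and 1.90 in the means, the ratio of MYL3 to MYL2-A is lowest in ST and SS, and the ratio of the MYL6 loci is highest in SS.

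Muscle took most of the variance of 5 loci. Its share of the sum of squares of log2 CPM was 90.7% for MYL3, 88.4% for MYLK3, 88.1% for MYL2-B, 85.5% for MYL2-A and 81.5% for MYL6-B, against 40.4% for MYL6-A and a median of 28.7% over all tested loci. Animal took 0.340% for MYL2-A and 19.3% for MYL6-A. In the joint test of the 4 animals 1 of the 6 loci was called, beside 17.6% of all loci. This was MYL6-B (edgeR FDR 0.00792), whose deviation from the muscle mean, averaged over the 9 muscles, was 0.55 in animal 3 and -0.53 in animal 4 on the log2 scale. Without animal 1, 3 or 4 this call was lost, at an FDR of 0.0226, 0.134 and 0.0989. The study sequenced its libraries in 4 lanes of 9 samples. Lane was not in the model, and its part in the differences among animals was not tested.

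Genes of the slow fibre whose symbols could be paired with a locus were set beside the loci described here. The list of 9 slow fibre genes yielded 7 paired loci, namely the troponin subunits TNNT1, TNNC1 and TNNI1, the tropomyosin TPM3, the Z-disc protein MYOZ2, the calcium pump ATP2A2 and the calcium-binding CASQ2. A locus at the position of MYBPC1, also on the list, was not among the 7 and did not follow them. It stood at 1211 CPM in ST, 1465 in SS and 1107 in PM, and its calls included none with ST lower. All 7 were called lower in ST than in SS, with a median log2FC of -3.25 (-4.34 to -2.76), and lower in ST than in PM, with a median of -3.51. Of all tested loci, 1.56% were called lower in ST than in SS and 0.875% lower in ST than in PM. Of the 7, 0 were called by edgeR's quasi-likelihood test between SS and PM and 3 had an unadjusted p under 0.05, where their log2FC lay between -0.67 and 0.76. The study named these genes from these samples, so the counts are not independent evidence of a direction. TNNC1 stood at 272 CPM in SS, 328 in PM and 28.5 in ST.

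Of the other genes on the lists, PVALB, the calcium-binding parvalbumin of fast fibres, stood at 7.70, 6.97, 6.10 and 1.93 CPM in ST of animals 1 to 4 and at 17.4, 2.18, 1.24 and 1.73 CPM in SS (edgeR FDR 0.518). The means were 5.68 CPM in ST and 5.63 in SS, and without animal 1 the mean in SS was 1.72 CPM. PVALB was highest in RF, at 7.29 CPM, and in every other muscle it was at most 0.662 CPM (GB), down to 0 in AD. It was called in 18 of 36 pairs, beside 0.739% of all locus and pair combinations. MYOM3, a protein of the M band, was at 5.41 CPM in ST and 42.2 in SS (log2FC -3.01, edgeR FDR 9.14e-05). A locus at the position of MYLK4, another light chain kinase, was highest in ST at 7.32 CPM and lowest in SM at 0.125 CPM. It was called in 11 of 36 pairs, 6 of them with ST higher, beside 0.739% of all locus and pair combinations. Of 2 loci at the position of MYH7B, 1 stood at 3.61 CPM in ST and 73.9 in SS, and the other at 12.6 CPM in both. Of 92 symbols on the lists of cell types, light chains, heavy chains and kinases, 9 were paired with a single locus. The remaining light chains and the markers of smooth muscle, vessels, fat, connective tissue and nerve were not analysed under their names. Their part in the results was not tested.

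The locus most like MYL2-A over the 9 muscle means of log2 CPM, among all tested loci, was that of TNNC1, with r = 0.993 and at least 0.967 within each animal. MYL2-B and TNNT1 (r = 0.990) were also among its 5 nearest. The nearest of MYL3 included MYLK3 (r = 0.939, at least 0.808 within each animal) and TNNT1 (r = 0.938, at least 0.883), and 3 loci without a paired symbol, whose r fell to -0.367, 0.482 and 0.167 in the animal with the lowest value. The 5 nearest of MYLK3 all lacked a paired symbol, with r of 0.961 to 0.983 that fell to between -0.392 and 0.850 in one animal. The 5 nearest of MYL6-B all lacked a paired symbol, with r of 0.888 to 0.947 that fell to between 0.203 and 0.422 in the animal with the lowest value. MYL6-B had r of 0.152 with MYL3, 0.279 with MYLK3, 0.523 with MYL2-A and 0.446 with TNNC1. MYL6-A had negative r with the 5 other loci, from -0.708 to -0.574. These are descriptions over 9 means from the same 4 animals, with no test.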

How the data were processed

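The authors aligned paired-end reads to the Oar_v3.1 sheep assembly with TopHat2 2.0.13, assembled loci with Cufflinks 2.2.1 and the Ensembl annotation, and counted reads per locus with HTSeq. The deposited counts are whole numbers without normalization, 1 table per sample with 31530 entries. A locus listed under several Ensembl genes was used once, so 394 entries were removed and 31136 loci remained. The strand setting of the counting was not given in the sources used here. The files hold no symbols, and names were paired with loci through coordinates in the study's tables. RefSeq (ARS-UI_Ramb_v3.0) served for neighbouring genes only, since it gave an Ensembl identifier for 0 of 35057 genes.

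Loci were filtered with filterByExpr by muscle and normalized with TMM (R 4.3.3, edgeR 4.0.16, limma 3.58.1). One negative binomial fit held muscle and animal for the 36 samples, and differences were tested with the quasi-likelihood F test of edgeR, with p-values adjusted by Benjamini-Hochberg over 12461 loci in each comparison. A difference was called at an FDR of at most 0.01 and, between 2 muscles, an absolute log2FC above 1. Differences within animals, shares of variance and ratios used log2 CPM with a prior count of 2, and the SE is that of the 4 within-animal differences. Ratios were tested by permuting muscles within animals (100000 resamples, one-sided for a larger spread among muscle means). Alternatives were the likelihood ratio test, no animal, DESeq2 1.42.0, RLE size factors, leaving out the 4 most counted loci, 2 other filters, an FDR of 0.05, fits to 8 samples, and each animal left out.

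Samples were paired by the number in their titles, such as SM1 and ST1, which was taken as the animal. Same-animal samples had correlated deviations from the muscle means (mean r 0.236 over 144 pairs, against -0.0777 over 432 other pairs). The deviations of a muscle sum to 0 over its animals, so the second value follows from the first and is no separate baseline. Any 2 animals differed within a muscle by more than counting noise (54 of 54 pairs, chi-square per degree of freedom of at least 5.48). Depth was 3699148 to 6427422 counts per sample. The loci and gene lists were chosen with earlier results of these data known. All 6 loci are named, then the genes of the lists whose symbol or position was matched to a locus, and the 5 loci nearest to each by r. No protein or promoter sequences were used here.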

Additional observations from a re-analysis of the deposited data

Results flagged for a closer look

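A sample was singled out where its gap to the nearest of the other 3 animals of a muscle exceeded Dixon's 95% critical value for 4 samples, relative to the range of the muscle. Of 108 groups of 4 samples, 6 were singled out, where chance gives about 5.4. MYL2-B was at 6.44 CPM in ST of animal 4, and its 3 other ST samples lay near each other. MYL6-B was at 2.71 CPM in PM of animal 4, below the others, and MYLK3 was at 16.0 CPM in SM of animal 3, above the others. The log2 ratio of MYL3 to MYL2-A was -0.41 in RF of animal 2, the lowest of that muscle. The log2 ratio of MYL3 to MYL2-B was 0.91 in ST of animal 3, where the count of MYL3 was 32. The log2 ratio of MYL2-A to MYL2-B was 2.46 in RF of animal 2, which contains the same MYL2-A value as the ratio in RF given before.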

How the results depend on the processing

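The direction of every called difference was kept under all alternatives that gave a value, with 0 sign changes among the 57 calls in each. The 57 calls of the 6 loci became 88 with the likelihood ratio test and 87 with DESeq2, and all 57 were among them. The cause of changes in counts was not tested, except that fewer samples or loci enter some fits. Without the replicate block, so without the pairing by animal, 47 of the 57 calls were made and 1 was gained. All loci called without the block fell to 375 among the 9 muscles, 129 between ST and SS and 42 between SS and PM. The minimum of 10 counts in every sample removed MYL3 and MYLK3, whose lowest counts were 5 and 7, so that 3 of the 6 loci were called among the 9 muscles. It left 1127 loci called among the animals, 132 between ST and SS and 53 between SS and PM. The likelihood ratio test called 2116 loci among the 9 muscles and 166 between SS and PM, and an FDR of 0.05 called 2448 among the muscles, 3714 among the animals, 578 between ST and SS and 203 between SS and PM. Among the animals, 2 of the 6 loci were called by the likelihood ratio test, by DESeq2 and at an FDR of 0.05. With each animal left out in turn, calls of the 6 loci ranged from 37 (without animal 1) to 56, those among the animals from 0 to 1, and all loci called from 428 to 774 among the 9 muscles, 1197 to 1735 among the animals, 155 to 262 between ST and SS and 36 (without animal 3) to 111 between SS and PM. The range of the log2 ratio of MYLK3 to MYL2-A among muscles then lay between 1.20 and 1.69, and the adjusted p of the permutation test was 0.154 without animal 3. The 4 other ratios kept their side of the threshold under every alternative. Depth limits the lowest levels, such as MYL3 in ST of animals 1 and 2 with 5 counts each.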
